A study of Homo sapiens with 6 samples.

Results

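10 genes that mark epithelial or mesenchymal cells, or that control the change from one state to the other, were read from the gene table of Hep-G2 cells depleted of calmegin. They were taken by gene symbol, as the 10 rows for CDH1, EPCAM, CDH2, VIM, CD44, SNAI1, SNAI2, ZEB1, ZEB2 and TWIST1 among 58735 genes. Hep-G2 is an established human liver cancer line, and calmegin, the product of CLGN, is a chaperone of the endoplasmic reticulum. The sh-NC group (n = 3 libraries, genotype WT, treatment shcontrol) carried a negative control hairpin, and the sh-CLGN group (n = 3 libraries, genotype CLGN knock down, treatment shCLGN) carried a hairpin against CLGN. Both hairpins came by lentivirus with puromycin selection, with 1 hairpin per group, so an effect of the hairpin itself and an effect of lower CLGN cannot be told apart. All 6 libraries have the same batch label and none has a stated drug treatment. The labels do not say whether the 3 libraries of a group came from separate cultures, so the p-values measure only the spread between these libraries, which may be technical.

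Epithelial cells are held to each other by E-cadherin (CDH1) at adherens junctions, and EPCAM is a further adhesion molecule of epithelial cells that is often raised in liver cancer. In epithelial-mesenchymal transition, transcription factors of the SNAI, ZEB and TWIST families repress CDH1 through E-box sequences, while N-cadherin (CDH2) and the intermediate filament vimentin (VIM) increase. Hepatocytes are unusual among epithelia in carrying both E-cadherin and N-cadherin. CD44 is the main cell surface receptor for hyaluronan and is widely used as a marker of invasive and stem-like carcinoma cells.

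FPKM values correct the fragments on a gene for its length and for the size of the library, which allows levels of different genes to be set side by side. The libraries held 14955816 to 16244639 reads on genes. CLGN itself stood at 24.1, 21.0 and 26.1 FPKM in sh-NC and at 9.48, 8.88 and 8.60 FPKM in sh-CLGN. All 3 sh-CLGN libraries lay below the sh-NC libraries, with a log2 fold change of -1.31 ± 0.081 (SE) and an adjusted p of 8.35e-06. Fold changes are sh-CLGN over sh-NC on the log2(FPKM + 1) scale, from limma with Benjamini-Hochberg adjustment over all genes tested, so low levels make the printed change smaller than the change in FPKM. The cells are a bulk population, so fewer cells of a type and less RNA per cell cannot be told apart. Hepatocyte markers were high in every library, at a summed level of 7069 to 7306 FPKM in sh-NC and 7171 to 7635 FPKM in sh-CLGN for 9 of 9 genes. Of the 9, 3 were higher and 5 lower past an adjusted p of 0.05, against 26.7% higher and 39.0% lower of all genes tested. At least 1 read was found on 23578 to 23793 genes in sh-NC and on 26814 to 27006 genes in sh-CLGN, and the mitochondrial share of reads was 3.25% to 4.02% and 5.49% to 5.80%, respectively. The part of these differences in the results given here was not tested.

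Promoter sequences of the genes that differed most among those with a RefSeq entry are shown first, because the SNAI and ZEB proteins act on E-boxes in promoters and because CD44, VIM and CDH2 were all higher in sh-CLGN. The RefSeq table (GRCh38.p14) held promoters for 5 of the 10 genes, CDH2, VIM, CD44, ZEB1 and ZEB2. Each sequence runs 5′ to 3′ on the strand of the gene, from 250 bases before the transcript start to 50 bases after it, and capitals mark the GC box (GGGCGG, or CCGCCC on the other strand). They lie at chr11:35138921-35139220 (plus strand) for CD44, chr10:17227991-17228290 (plus strand) for VIM and chr18:28177081-28177380 (minus strand) for the upstream start of CDH2.
CD44: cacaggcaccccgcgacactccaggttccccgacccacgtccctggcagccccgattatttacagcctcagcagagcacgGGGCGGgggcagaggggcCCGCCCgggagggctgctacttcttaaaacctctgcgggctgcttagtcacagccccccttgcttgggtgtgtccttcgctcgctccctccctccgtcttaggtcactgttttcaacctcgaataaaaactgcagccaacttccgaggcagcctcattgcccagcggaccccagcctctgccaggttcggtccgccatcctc
VIM: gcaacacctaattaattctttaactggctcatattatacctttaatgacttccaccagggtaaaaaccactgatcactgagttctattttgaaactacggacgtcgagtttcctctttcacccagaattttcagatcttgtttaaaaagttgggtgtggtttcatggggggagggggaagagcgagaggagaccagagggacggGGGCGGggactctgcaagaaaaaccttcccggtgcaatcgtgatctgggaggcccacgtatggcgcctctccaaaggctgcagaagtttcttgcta
CDH2: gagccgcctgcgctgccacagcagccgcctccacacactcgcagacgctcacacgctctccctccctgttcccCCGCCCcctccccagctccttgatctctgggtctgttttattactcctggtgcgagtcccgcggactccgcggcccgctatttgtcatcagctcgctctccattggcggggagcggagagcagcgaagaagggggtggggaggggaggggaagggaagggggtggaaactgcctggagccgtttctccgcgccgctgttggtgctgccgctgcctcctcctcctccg

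The CD44 promoter held 2 GC boxes, which began at positions -170 and -152 relative to the start, and its GC content was 63.3%. VIM held 1 GC box at position -46, in a sequence of 48.0% GC, and CDH2 held 1 at position -177, in a sequence of 67.0% GC. A GC box was present in 45.0% of all 35116 promoters in the table. None of the 3 sequences held CACCTG, the E-box bound by SNAI and ZEB proteins, on either strand, a motif found in 20.6% of all promoters. None held the general E-box CANNTG either, which includes CACCTG and was found in 68.7% of all promoters. AP-1 (TGANTCA) and TATAAA were also absent from the 3 sequences and were found in 7.71% and 11.5% of all promoters. CDH2 has 2 entries, and its downstream start, at chr18:28036592-28036891, differed from the sequence shown. It held 1 general E-box, 1 AP-1 match and 1 TATAAA, with no GC box and no CACCTG. The ZEB1 gene has 7 entries, of which 2 held CACCTG, with 1 match at the most upstream start and 3 matches at another. A match describes letters in a window of 300 bases, and no match says nothing of the factor.

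Of the 10 genes, 7 reached 1 FPKM in at least 3 libraries and were tested, and SNAI2, ZEB2 and TWIST1 did not. Of the 7, CD44 passed this filter only through the sh-CLGN libraries, where it was high, so it had to differ, and the counts over the 7 genes describe the list without supporting it. At an adjusted p of at most 0.05, 5 of the 7 were higher (CDH1, CDH2, VIM, SNAI1 and CD44), against 26.7% of all 13074 genes tested. One, EPCAM, was lower, against 39.0% of all genes tested. CD44 alone also had a log2 fold change of at least 1, against 3.09% of all genes tested, and none had one of -1 or less, against 3.19%. The libraries of the groups did not overlap for 6 of the 7, against 70.2% of all genes tested. The median log2 fold change of the 7 was 0.41, against -0.077 for all genes tested. Most genes in these libraries thus differed, and the split of the calls moved with the settings. As reported, 40.7% of called genes were higher, against 52.2% after TPM rescaling and 59.2% with libraries scaled by their read totals. It was 49.1% with no filter on low values, and 50.7% with voom on the reads, which also tested more genes with another model.

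**Figure D1:**
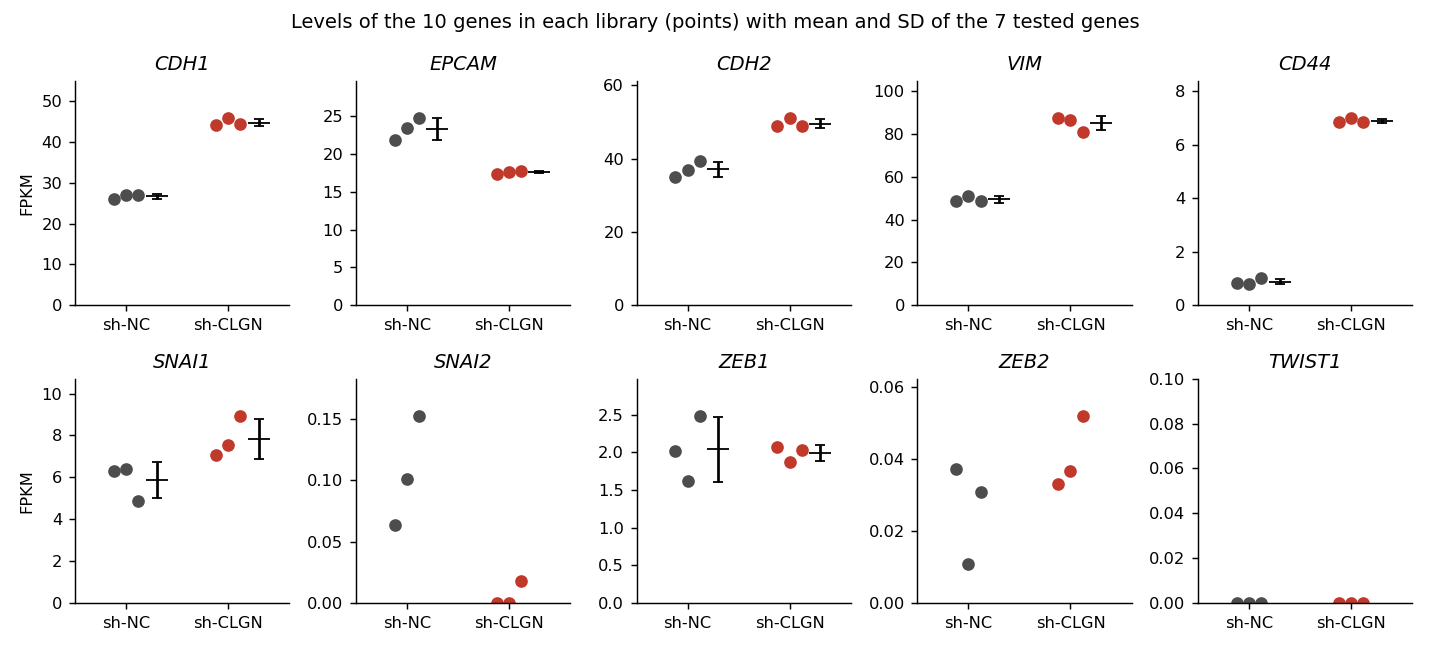
FPKM of each of the 10 genes (vertical axes, linear, each with its own range) in the 3 sh-NC libraries (grey points) and the 3 sh-CLGN libraries (red points), with the mean and SD beside the points for the 7 tested genes. The groups separate for CDH1, EPCAM, CDH2, VIM, CD44 and SNAI1 and overlap for ZEB1, and TWIST1 lies at 0 in every library.

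The epithelial markers moved in opposite directions. CDH1 (ENSG00000039068, chr16:68737225-68835548) encodes E-cadherin and stood at 25.9, 27.1 and 27.0 FPKM in the sh-NC libraries and at 44.2, 45.8 and 44.3 FPKM in the sh-CLGN libraries. Every sh-CLGN library lay above every sh-NC library, and the spread within a group was small, with a coefficient of variation of 2.47% for sh-NC and 2.01% for sh-CLGN. The mean rose 1.68-fold, from 26.7 ± 0.659 to 44.8 ± 0.902 FPKM (SD, n = 3), with a log2 fold change of 0.73 ± 0.045 (SE) and an adjusted p of 8.22e-06. The gain rests on 2235 to 2584 reads per sh-NC library and 4421 to 4640 per sh-CLGN library. The pseudogene FTLP14 lies within CDH1 and had 7 to 18 reads per library.

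EPCAM (ENSG00000119888, chr2:47345158-47387601) stood at 21.9, 23.4 and 24.7 FPKM in sh-NC and at 17.4, 17.7 and 17.8 FPKM in sh-CLGN. All 3 sh-CLGN libraries were below all 3 sh-NC libraries, and the gap between the nearest libraries was 4.05 FPKM. The mean was 0.756 of the control, with a log2 fold change of -0.38 ± 0.056 (SE) and an adjusted p of 5.20e-04. EPCAM did not pass the test after quantile normalization, where its log2 fold change was -0.15 and its adjusted p 0.0544, the highest of 12 alternatives, which ranged down to 6.90e-05. With libraries scaled by read totals its log2 fold change was -0.20, on a scale where the median of all genes was higher by 0.16, and relative to that shift it was -0.36.

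Both mesenchymal markers rose. VIM (ENSG00000026025, chr10:17228259-17237593) encodes vimentin and was the most abundant of the 10 genes, at 48.6, 51.3 and 48.6 FPKM in sh-NC and 87.4, 86.6 and 81.3 FPKM in sh-CLGN. No library of one group reached the range of the other. VIM was 1.72-fold higher, with a log2 fold change of 0.77 ± 0.050 (SE) and an adjusted p of 9.93e-06, and its 95% interval, 0.65 to 0.88, overlapped that of CDH1, 0.62 to 0.83. The antisense gene VIM-AS1 overlaps VIM and had 4, 7 and 7 reads in sh-NC against 13, 15 and 16 in sh-CLGN, beside 3499 to 7648 reads on VIM. Whether the counting used strand is not given in the sources used here, so reads of VIM and VIM-AS1 cannot be told apart where they overlap.

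CDH2 (ENSG00000170558, chr18:27950966-28177446) encodes N-cadherin and stood at 34.9, 37.0 and 39.2 FPKM in sh-NC and at 48.9, 51.0 and 48.8 FPKM in sh-CLGN. The groups did not overlap, and the sh-NC libraries varied more, with a coefficient of variation of 5.84% against 2.45%. The mean was 1.34-fold higher, with a log2 fold change of 0.41 ± 0.055 (SE) and an adjusted p of 3.23e-04. After quantile normalization the log2 fold change of CDH2 was 0.70, which is more than 1.5 times the value as reported.

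**Figure D2:**
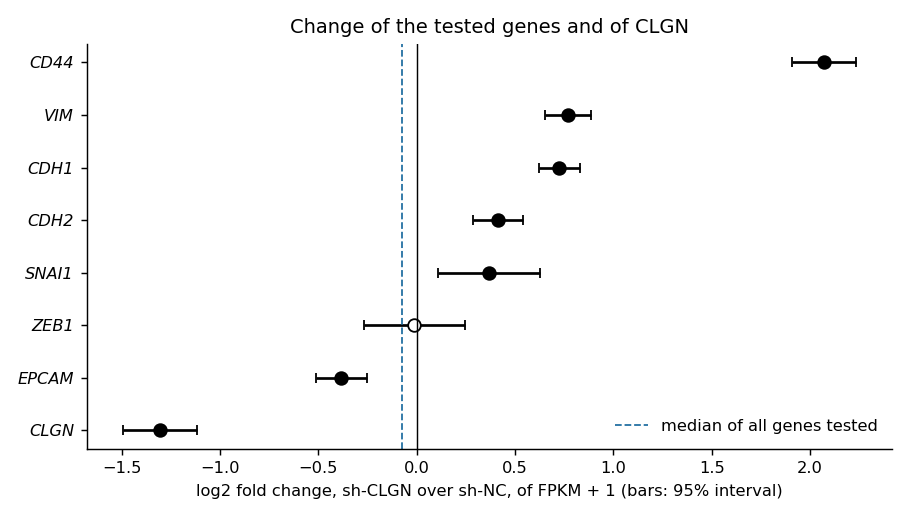
Log2 fold change of FPKM + 1 in sh-CLGN over sh-NC (horizontal axis) for the 7 tested genes and CLGN, with 95% intervals from limma. Filled points passed an adjusted p of 0.05 and the open point did not, and the dashed line is the median of all genes tested, -0.077. CD44 lies at 2.07, apart from VIM, CDH1, CDH2 and SNAI1 between 0.37 and 0.77, and EPCAM lies below 0.

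E-cadherin and N-cadherin both rose, with the larger fold change for E-cadherin. The log2 ratio of CDH2 to CDH1 within a library was 0.43, 0.45 and 0.54 in sh-NC against 0.15, 0.15 and 0.14 in sh-CLGN. The 3 sh-CLGN ratios were all below the 3 sh-NC ratios. N-cadherin remained the more abundant of the pair in every library, by 1.39-fold in sh-NC against 1.11-fold in sh-CLGN. The mean log2 ratio differed by -0.32, with an exact two-sided permutation p of 0.1, which is the smallest that 3 libraries against 3 can give. Scaling each library by 1 factor leaves this ratio unchanged, but a correction that differs between genes can move it. With the GC correction the log2 fold changes were 0.39 for CDH2 and 0.87 for CDH1, against 0.41 and 0.73 as reported.

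The summed cadherin level overlapped between the groups while the shares of its main members differed. Over 22 cadherin genes the summed level was 136.5 ± 5.20 FPKM in sh-NC and 139.6 ± 1.78 FPKM in sh-CLGN (SD, n = 3). CDH17, liver-intestine cadherin, stood at 67.0, 64.9 and 71.6 FPKM in sh-NC and at 35.6, 33.4 and 34.0 FPKM in sh-CLGN, with a log2 fold change of -0.96 and an adjusted p of 5.58e-06. Its share of the sum was 49.7% ± 0.982 in sh-NC against 24.6% ± 0.905 in sh-CLGN. CDH1 had 19.6% ± 0.656 and 32.1% ± 0.452 of the sum, and CDH2 had 27.1% ± 0.816 and 35.5% ± 0.587. The most abundant cadherin was therefore CDH17 in every sh-NC library and CDH2 in every sh-CLGN library.

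**Figure D3:**
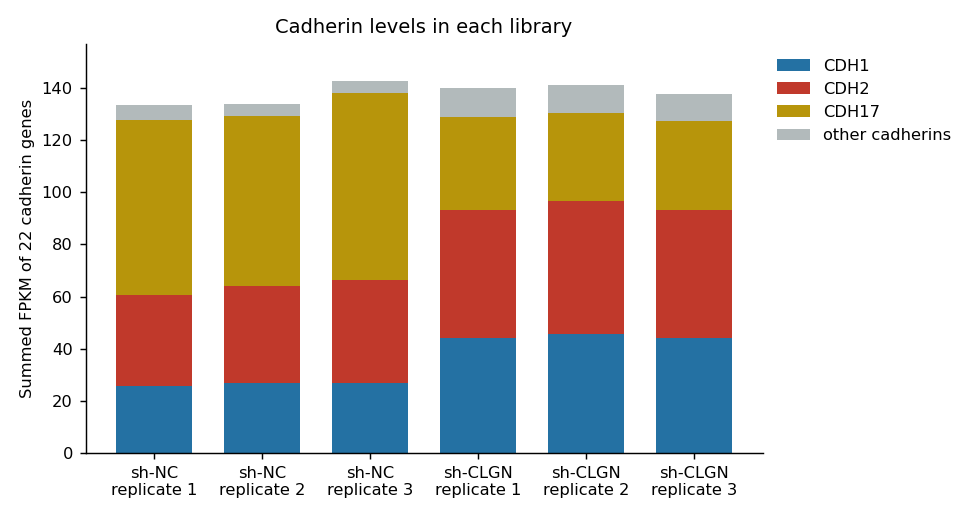
Summed FPKM of 22 cadherin genes (vertical axis, from 0) in each of the 6 libraries, divided into CDH1, CDH2, CDH17 and the other 19. The blue and red parts, CDH1 and CDH2, are larger in the 3 sh-CLGN libraries and the CDH17 part is smaller, while the height of the bars overlaps between groups.

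Of the 20 other cadherins, 5 were tested, of which 3 were higher, 1 was lower and 1 did not pass, against 26.7% higher and 39.0% lower of all genes tested, with a median log2 fold change of 0.48 against -0.077 for all genes tested. CDH4, CDH6 and CDH19 passed the filter with all 3 sh-CLGN libraries and not all sh-NC libraries, so the count and the median do not support a rise of the list. With no filter the median of the 16 with a read was 0.011, with 3 higher and 2 lower. CDH19 did not pass with quantile normalization (adjusted p of 0.114) or the GC correction (0.141). CDH24, a classical-type cadherin that binds catenins, was higher at 5.63 ± 0.113 against 1.48 ± 0.131 FPKM, with a log2 fold change of 1.42 and an adjusted p of 3.16e-06. Of the 20, 9 had at most 3 reads in any library, the osteoblast and fibroblast cadherin CDH11 among them with none.

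CD44 had the largest fold change of the 7 tested genes. CD44 (ENSG00000026508, chr11:35138870-35232402) stood at 0.831, 0.808 and 1.00 FPKM in sh-NC and at 6.86, 6.98 and 6.84 FPKM in sh-CLGN, which is 116, 118 and 155 reads against 1164, 1145 and 1104 reads. The sh-NC libraries were all near 1 FPKM, and the sh-CLGN libraries lay within a narrow range with a coefficient of variation of 1.15%. The mean was 7.83-fold higher, with a log2 fold change of 2.07 ± 0.070 (SE, 95% interval 1.91 to 2.23) and an adjusted p of 1.05e-06. On the log2 scale with a pseudocount of 0.1, and with voom on the reads, its fold changes were 2.84 and 2.97. By rise CD44 ranked 27 of 13074 genes tested. Its level moved from above 5.74% of tested genes in sh-NC to above 55.4% in sh-CLGN. CD44 came among the tested genes only through its sh-CLGN libraries, so a low place in sh-NC was set by the filter. The rank, these places and the adjusted p therefore describe CD44 and give no support. GENCODE 29 lists 39 CD44 transcripts, 26 of them coding, and the table gives 1 value per gene, so standard and variant CD44 isoforms were not separated. The antisense gene CD44-AS1 had at most 4 reads in any library.

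White blood cells also carry CD44, and some of their markers were at or near 0 while others were not. PTPRC, the pan-leukocyte phosphatase CD45, had 0 to 4 reads per library, and CD3E and CD68 had 0 to 3. The summed level of the 7 leukocyte markers was 70.0 to 77.8 FPKM in sh-NC and 61.3 to 68.6 FPKM in sh-CLGN, of which lysozyme (LYZ) gave 60.7 to 76.2 FPKM. Both leukocyte markers tested, CD14, which passed the filter only through sh-NC, and LYZ, were lower in sh-CLGN, against 39.0% of all genes tested. Their log2 fold changes were -0.62 and -0.19, and LYZ turned to 0.10 after quantile normalization and 0.0062 with read totals.

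Genes that act with CD44 did not move in one direction. Of 22 ligands, partners and sheddases, 15 were tested, of which 6 were higher, 7 were lower and 2 did not pass, with a median log2 fold change of 0.0078, against 26.7% and 39.0% of all genes tested. HAS2 and CD74, both among the 6 higher, passed the filter only through the sh-CLGN libraries. After quantile normalization 7 were higher and 2 lower, and with read totals 8 were higher and 3 lower. SPP1, which encodes the CD44 ligand osteopontin, was the one past a log2 fold change of 1, at 1.36, 1.24 and 2.14 FPKM in sh-NC and 5.10, 4.78 and 5.98 FPKM in sh-CLGN. SPP1 was higher in 3 of 3 sh-CLGN libraries, with a log2 fold change of 1.30 ± 0.14 (SE) and an adjusted p of 9.96e-05. Among enzymes of hyaluronan, the synthase HAS2 was higher with a log2 fold change of 0.73, and the hyaluronidase HYAL2 was lower with -0.71. MET, the receptor for hepatocyte growth factor and a CD44 partner, was higher with 0.69. Of the sheddases that release the CD44 ectodomain, ADAM17 (-0.41) and MMP14 (-0.32) were lower, MMP14 not past the test with quantile, read-total or GC settings, and ADAM10 had a log2 fold change of 0.0078 that did not pass the test. Ezrin (EZR), which links CD44 to actin, was lower with -0.21 as reported but turned to 0.086 after quantile normalization, radixin (RDX) did not pass with 0.12, and moesin (MSN) had at most 2 reads in any library.

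The genes whose pattern over the 6 libraries was most like that of CD44 were CAV1, PARVA, SYTL5, LIFR and ATRX, with Pearson correlations of log2(FPKM + 1) of 0.9999, 0.9997, 0.9997, 0.9996 and 0.9996. These correlations describe the difference between the groups, since the libraries form 2 separate sets, and 483 tested genes had a correlation of at least 0.99. CAV1, which encodes caveolin 1, stood at 4.54 ± 0.247 FPKM in sh-NC and 12.8 ± 0.0651 FPKM in sh-CLGN, and PARVA, a focal adhesion protein, at 1.44 ± 0.0720 and 4.30 ± 0.0261 FPKM.

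The 5 transcription factors stood below 10 FPKM in every library, and SNAI1 was the only one of them past the test. SNAI1 (ENSG00000124216, chr20:49982999-49988886) encodes Snail, which represses CDH1, and stood at 6.29, 6.42 and 4.87 FPKM in sh-NC and at 7.06, 7.53 and 8.93 FPKM in sh-CLGN. The ranges did not overlap, but the nearest libraries were 0.644 FPKM apart, less than the SD within either group, 0.861 FPKM for sh-NC and 0.971 FPKM for sh-CLGN. The log2 fold change was 0.37 ± 0.11 (SE, 95% interval 0.11 to 0.63) with an adjusted p of 0.0203. This call was lost with no filter on low values (adjusted p of 0.0734, the highest of 12 alternatives, which ranged down to 3.92e-04), with the replicate block (0.0502) and without sh-CLGN replicate 3 (log2 fold change 0.28, adjusted p of 0.0663). With a correction for GC content, which is 58.2% in SNAI1, its log2 fold change was 0.61.

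ZEB1 (ENSG00000148516, chr10:31318495-31529814), a zinc finger repressor of CDH1, stood at 2.02, 1.62 and 2.48 FPKM in sh-NC and at 2.06, 1.88 and 2.03 FPKM in sh-CLGN. The sh-CLGN libraries lay within the range of the sh-NC libraries. Its log2 fold change was -0.014 with a 95% interval of -0.27 to 0.24 and an adjusted p of 0.922, and the direction turned with TPM rescaling (0.097), read totals (0.12) and without sh-NC replicate 3 (0.089) or sh-CLGN replicate 2 (0.014). The antisense gene ZEB1-AS1 overlaps it and had 43 to 67 reads per library, beside 204 to 332 reads on ZEB1.

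SNAI2, ZEB2 and TWIST1 were at or near the limit of detection, taken as 3 reads. SNAI2 (ENSG00000019549) encodes Slug and had 3, 5 and 8 reads in the sh-NC libraries against 0, 0 and 1 in the sh-CLGN libraries. All 3 sh-CLGN libraries were below all 3 sh-NC libraries. The ratio of summed reads was 0.0556, with an exact 95% interval of 0.0013 to 0.358 that covers counting error only. Voom on the reads of 22042 genes filtered on reads, at least 10 over all libraries, and not on FPKM. There SNAI2 was lower with a log2 fold change of -3.11 ± 0.87 (SE) and an adjusted p of 0.00417. Of the genes in that fit, 25.4% were called lower. The 1 read in sh-CLGN sets the fold change of SNAI2, and 3 reads on SNAI2 amount to 0.0521 to 0.0634 FPKM. With 16 reads in sh-NC against 1, SNAI2 passed the read filter only through sh-NC, where it was high. Its voom call therefore describes SNAI2 and gives no support.

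ZEB2 (ENSG00000169554) had 13, 4 and 12 reads in sh-NC against 14, 15 and 21 in sh-CLGN, on a gene model of 25058 bases. The ratio of summed reads was 1.53 (exact 95% interval 0.952 to 2.51, counting error only), and voom gave a log2 fold change of 0.72 and an adjusted p of 0.173. TWIST1 (ENSG00000122691) had 0 reads in all 6 libraries, and 3 reads would be 0.0870 to 0.106 FPKM.

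In order of level, the sh-NC libraries had VIM, CDH2, CDH1, EPCAM, SNAI1, ZEB1, CD44, SNAI2, ZEB2 and TWIST1, and each neighbouring pair of the first 7 was apart by more than the larger SD. In sh-CLGN the first 5 places were the same genes in the same order, followed by CD44, which came to lie next to SNAI1. The means of SNAI1 and CD44 there, 7.84 and 6.89 FPKM, differed by less than the SD of SNAI1. SNAI2 and TWIST1 in sh-CLGN, both under the floor, were not apart beyond their spread.

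Genes around these markers were read from 8 lists of related genes. Among 27 further mesenchymal genes, 18 were tested, of which 13 were higher and 5 lower, with a median log2 fold change of 0.74, against 26.7% higher and 39.0% lower of all genes tested. COL1A1, COL3A1 and TAGLN, which are in these counts, passed the filter only through sh-CLGN, where they were high. The count and the median therefore do not support a rise of the list. The summed level of the 27 genes overlapped between the groups, at 699.3 to 749.3 FPKM in sh-NC and 663.6 to 705.6 FPKM in sh-CLGN. TAGLN, the actin-binding protein transgelin, stood at 0.494, 0.595 and 0.396 FPKM in sh-NC and 16.4, 15.8 and 16.9 FPKM in sh-CLGN, with a log2 fold change of 3.54 and an adjusted p of 1.46e-07. SPARC, a collagen-binding matrix protein, stood at 8.83, 8.68 and 8.08 FPKM against 72.8, 71.8 and 74.9 FPKM. COL1A2, a chain of type I collagen, was 9.21-fold higher and MYL9, a myosin light chain, 2.68-fold higher. Each of these 4 genes lay higher in 3 of 3 sh-CLGN libraries. Among the genes that were lower, fibronectin (FN1) had a log2 fold change of -0.59, the collagen crosslinking enzyme LOX -0.68, the fibronectin receptor chain ITGA5 -0.61 and the ectonucleotidase NT5E -0.29, NT5E not past the test after TPM, quantile or read-total scaling.

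The summed level of fibroblast and stellate cell markers over 9 genes was 3.01 to 3.29 FPKM in sh-NC and 6.79 to 7.49 FPKM in sh-CLGN, and the 3 tested, COL3A1, LUM and PDGFRB, were higher, against 26.7% of all genes tested. COL3A1 and LUM passed the filter only through sh-CLGN, where they were high, so the count does not support a rise of the list. PDGFRA, under the filter, stood at 0.471, 0.324 and 0.465 FPKM in sh-NC against 1.08, 0.852 and 0.916 FPKM in sh-CLGN. PDGFRB did not pass after quantile normalization (adjusted p of 0.0991). The rest of the 9, COL6A3, DCN, THY1, FAP and DPT, had at most 3 reads in every library. ACTA2, which marks activated stellate cells and is not among the 9, had at most 5.

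**Figure D4:**
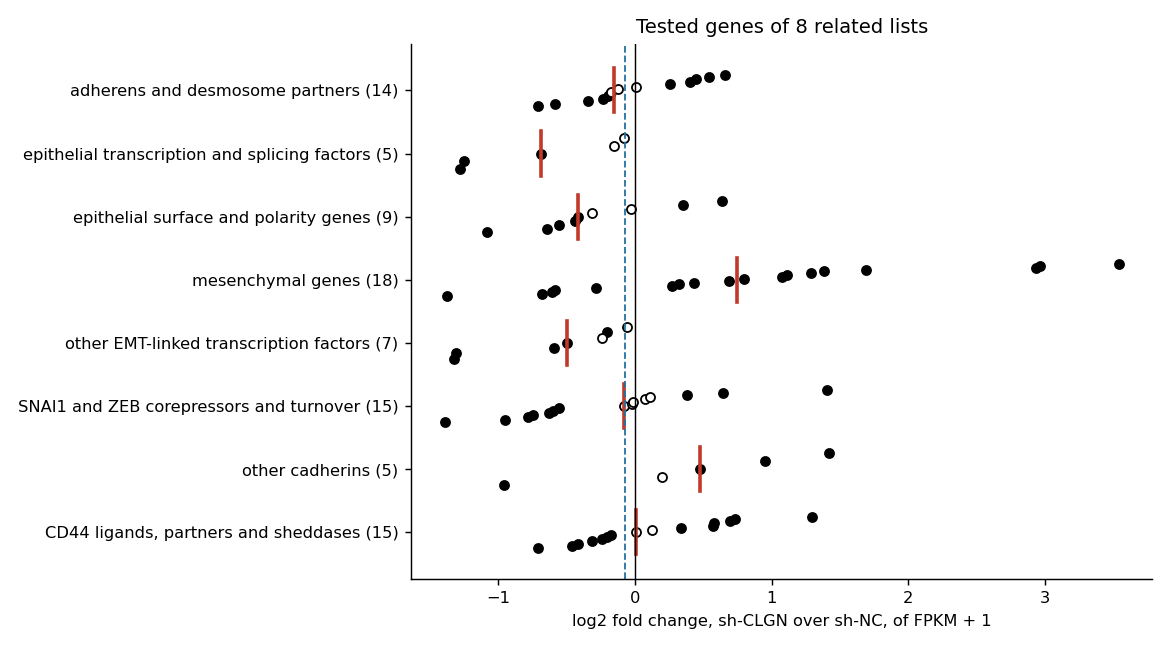
Log2 fold change of FPKM + 1 in sh-CLGN over sh-NC (horizontal axis) of each tested gene of 8 related lists (rows, number tested in brackets). Filled points passed an adjusted p of 0.05, red bars are the list medians and the dashed line is the median of all genes tested. The mesenchymal genes reach up to 3.54, for TAGLN, and no tested epithelial transcription or splicing factor lies above 0.

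Epithelial transcription and splicing factors were lower or did not pass. Of 10, 5 were tested, and 3 were lower with a median of -0.69 over the 5, against 39.0% of all genes tested. KLF5 stood at 28.7 ± 1.51 FPKM in sh-NC and 11.2 ± 0.355 FPKM in sh-CLGN, and ELF3 at 17.1 ± 0.981 and 6.58 ± 0.252 FPKM (SD, n = 3), with log2 fold changes of -1.28 and -1.25. The splicing regulator ESRP2, which favours epithelial isoforms of transcripts such as that of CD44, had 5.41, 5.36 and 4.46 FPKM against 4.57, 4.54 and 4.25 FPKM and did not pass (adjusted p of 0.119), and ESRP1 was at 0.31 FPKM or less in every library. Of 15 epithelial surface and polarity genes, 9 were tested, with 2 higher, 5 lower and 2 not passing, and a median of -0.42, against 26.7% and 39.0% of all genes tested. With the GC correction the median was -0.14 and 3 were lower, CRB3 and LSR no longer among them, and with read totals it was -0.24 with 4 lower. The summed level of the 15 genes went the other way, at 295.0 to 305.9 FPKM in sh-NC and 404.4 to 408.1 FPKM in sh-CLGN. The tetraspanin CD9 was lower, at 3.68 ± 0.281 FPKM in sh-CLGN against 8.91 ± 0.675 FPKM in sh-NC, with a log2 fold change of -1.08 and an adjusted p of 1.33e-05, and CD24 was higher with 0.64. CLDN7 and ST14 reached 1 FPKM in all sh-NC libraries but not in all sh-CLGN libraries. Both are among the 9 tested and CLDN7 is among the 5 lower, so the count and the median do not support a fall of the list.

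The partners of the cadherins at adherens junctions and desmosomes were divided. Of 15, 14 were tested, with 5 higher, 6 lower and 3 not passing, against 26.7% and 39.0% of all genes tested, and a median of -0.15 that turned to 0.12 after quantile normalization and 0.038 with read totals. JUP, which encodes plakoglobin, was higher at 49.4 ± 1.79 against 31.0 ± 2.42 FPKM, with a log2 fold change of 0.66 ± 0.065 (SE) and an adjusted p of 7.09e-05. NECTIN2, an adhesion molecule of adherens junctions, was lower at 33.5 ± 1.15 against 55.5 ± 5.04 FPKM, with -0.71 ± 0.070 (SE) and 7.21e-05. Of the catenins of the CDH1 complex, CTNNB1 had a log2 fold change of -0.12 that did not pass (adjusted p of 0.0662), and CTNNA1 (-0.23) and CTNND1 (-0.35) were lower. After quantile normalization neither of these passed, and CTNNA1 turned to 0.034.

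Of 15 other transcription factors linked to the transition, 7 were tested, with 0 higher, 5 lower and 2 not passing, and a median of -0.50, against 39.0% of all genes tested that were lower. The median was -0.22 with the GC correction and -0.31 with quantile normalization or read totals, and 4 were lower with GC, TPM or read-total settings. SOX9 was lower, at 36.9 ± 0.618 FPKM in sh-CLGN against 93.8 ± 2.07 in sh-NC, and FOXQ1 at 10.2 ± 0.349 against 26.7 ± 1.31 FPKM, with log2 fold changes of -1.32 and -1.31 and adjusted p of 1.00e-06 and 2.07e-06. FOXC1, which is among the 7 tested and in their median, reached 1 FPKM in the sh-NC libraries only. TWIST2, GSC and KLF8 had no read in any library. Of 16 corepressors and regulators of SNAI1 and ZEB proteins, 15 were tested, with 3 higher, 7 lower and 5 not passing, against 26.7% and 39.0% of all genes tested. Their median of -0.081 turned to 0.039 with TPM rescaling and 0.099 with read totals, and was -0.20 with the GC correction. AJUBA, a LIM protein that serves as a Snail corepressor, was lower, at 27.5 ± 1.15 FPKM in sh-CLGN against 73.9 ± 2.88 in sh-NC, with a log2 fold change of -1.39. LOXL2, a lysyl oxidase that interacts with Snail, was higher, at 4.66 ± 0.278 against 1.14 ± 0.103 FPKM, with a log2 fold change of 1.41.

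**Figure D5:**
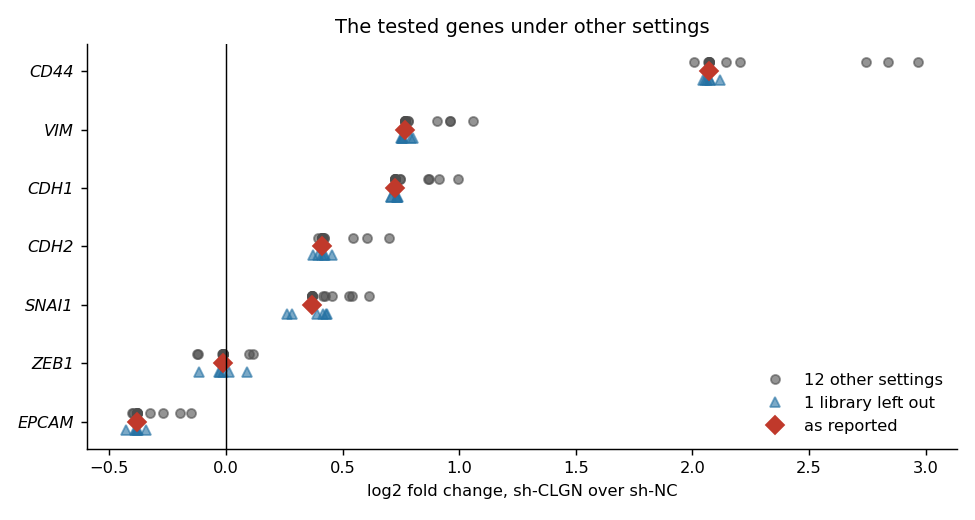
Log2 fold change in sh-CLGN over sh-NC (horizontal axis) of the 7 tested genes as reported (red), under 12 other settings of the analysis (grey) and with 1 library left out (blue). CD44, VIM, CDH1, CDH2 and SNAI1 stay above 0 and EPCAM below 0 in each, while ZEB1 lies on either side of 0.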

How the data were processed

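Sequencing covered 3 sh-NC and 3 sh-CLGN libraries of Hep-G2 RNA, made per the labels with a NEBNext Ultra RNA kit. The deposited table gives FPKM, computed by the authors, for each gene in each library, beside gene lengths. The submitters' processing notes name HISAT2 2.0.5, featureCounts and GRCh38, and all 58735 gene positions equalled GENCODE 29. Columns were matched to samples by name. Multiplied by gene length, 100% of the deposited FPKM values were whole multiples of 1 read (tolerance 0.01 of a read), so reads per gene could be recovered. The deposited library sizes were 0.933 to 0.953 (sh-NC) and 1.07 to 1.08 (sh-CLGN) of the read totals, and 1 read on 1 kb was worth 0.0589 to 0.0717 FPKM. Reads carried no molecular identifiers, so floors (3 reads) and intervals cover counting error only. Reads shared with paralogs, pseudogenes or overlapping genes may be split between them.

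The comparison used limma 3.58.1 (R 4.3.3; lmFit, eBayes with trend) on log2(FPKM + 1), for genes that reached 1 FPKM in 3 or more libraries, two-sided, with Benjamini-Hochberg adjustment over 13074 genes. A call needed an adjusted p no higher than 0.05, and the stricter call also a log2 fold change of 1 or more in size. The procedure was tested on simulated data. Alternatives were other pseudocounts, filters and scalings, robust eBayes, eBayes with no trend, voom on recovered reads (genes with at least 10 reads), a GC correction by lowess (span 0.3, GENCODE 29 transcripts), the replicate number as a block and each library left out. Motifs were searched on both strands. Python 3.11.15 was used with scipy 1.17.1, matplotlib 3.10.9, pandas 2.3.3 and numpy 2.4.6.

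The genes and lists were chosen with earlier results of these data known. From each list the text names up to 5 genes with the smallest adjusted p past both thresholds, or 2 where none passed both, and the 5 genes most like CD44. Other list genes, CDH17 among them, were named after their values were seen. Results of some listed genes are not reported here.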

Additional observations from a re-analysis of the deposited data

Results flagged for a closer look

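Among the list genes, 4 were left out of the test by the filter on low levels, yet had more reads in every sh-CLGN library than in any sh-NC library, over 3 reads in each, and a voom log2 fold change of at least 2 past an adjusted p of 0.05. Other untested genes with more reads in every sh-CLGN library, such as PDGFRA, did not meet all of these conditions. AXL, a receptor kinase linked to mesenchymal carcinoma cells, had 0 reads in each sh-NC library and 35 to 60 reads in sh-CLGN, at 0.566 ± 0.135 FPKM (SD, n = 3). Against the floor of 3 reads per sh-NC library it was at least 14.2-fold higher. TNC, which encodes the matrix protein tenascin C, had 0 to 4 reads in sh-NC against 55 to 87 in sh-CLGN, at 0.472 ± 0.119 FPKM. ETS1, a transcription factor, had 0 to 5 and 12 to 22 reads, at 0.133 ± 0.0478 FPKM in sh-CLGN. LYVE1, a hyaluronan receptor related to CD44, had 0 to 2 and 10 to 15 reads, at 0.225 ± 0.050 FPKM in sh-CLGN. With voom on the reads, the adjusted p was 2.55e-07 for AXL, 1.93e-06 for TNC, 0.00519 for ETS1 and 9.51e-04 for LYVE1. These p-values were part of the choice of the 4 genes, so they describe them and give no support. Voom called 5754 of 22042 genes higher, 2832 of them also with a log2 fold change of at least 1. How many of all genes met every condition was not counted.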

How the results depend on the processing

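Of the 7 tested genes, CDH1, CDH2, VIM and CD44 kept their direction and call under the 12 alternatives and with each library left out. CD44 passed the filter of 1 FPKM only through sh-CLGN, so its agreement in the settings that kept this filter gives no support. EPCAM lost its call after quantile normalization and SNAI1 with no filter, with the replicate block (adjusted p of 0.0502) and without sh-CLGN replicate 3. ZEB1, never called, turned to 0.097 with TPM rescaling, 0.12 with read totals, and lay between -0.12 (without sh-NC replicate 2) and 0.089 (without sh-NC replicate 3) with 1 library left out, above 0 also without sh-CLGN replicate 2 (0.014). Genes of the 10 called lower numbered 2 with no filter and with voom, where SNAI2 was added, and 0 after quantile normalization, where 2 were higher past both thresholds. SNAI2 passed the read filter of voom only through sh-NC, so its call there gives no support. Over all genes, 404 were higher and 417 lower past both thresholds as reported, against 925 and 681 with a pseudocount of 0.1, 1002 higher with TPM rescaling, 2832 and 1013 with voom (22042 genes tested), 235 lower with read totals and 242 lower with the GC correction. Voom called 5754 genes higher at the adjusted p alone. The median of all genes moved by 0.11 with TPM rescaling and 0.16 with read totals. The cause of these differences was not tested.

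The replicate numbers are shared between groups, but deviations of same-numbered libraries correlated at -0.018, -0.046 and -0.15, so the numbers were not taken to pair the libraries. With the replicate block, 3281 genes were higher and 4757 lower, against 3496 and 5102 without it. With 1 library left out, 3068 to 3579 genes were higher and 4566 to 5181 lower, and the log2 fold change of CLGN lay between -1.39 and -1.24. The difference in the cadherin log2 ratio lay between -0.35 and -0.29 with 1 library left out and was -0.31 with a pseudocount of 1 and -0.32 with the replicate block. At these depths SNAI2, ZEB2 and TWIST1 rest on at most 21 reads per library.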

Other observations

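Endothelial and bile duct markers were read as other cell types that carry VIM, CDH1 or CD44. The summed level of 5 endothelial markers was 3.36 to 3.67 FPKM in sh-NC and 2.38 to 2.65 FPKM in sh-CLGN, with VWF, KDR and TEK at 3 reads or fewer in every library. PECAM1, the 1 endothelial marker tested, was lower with a log2 fold change of -0.28, against 39.0% of all genes tested. It did not pass with TPM rescaling (adjusted p of 0.0625) or read totals (0.120). The summed level of 3 bile duct markers was 125.9 to 134.3 FPKM in sh-NC and 90.6 to 96.2 FPKM in sh-CLGN. Keratin 19 (KRT19) was higher with a log2 fold change of 0.60 and SOX9 was lower with -1.32, while KRT7 had at most 2 reads.

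The annotated 3′ UTRs of the 10 genes were searched for 3 heptamers that are complementary to the seed region of the CLGN hairpin's guide strand. EPCAM and CD44 each held ACCACAA, which was found in 11.6% of tested genes with a 3′ UTR of at least 50 bases. SNAI2 held all 3 heptamers and ZEB2 held 2 of them, while CDH1, CDH2, VIM, SNAI1, ZEB1 and TWIST1 held none. At least 1 of the 3 was found in 21.5% of 10880 tested genes. EPCAM and SNAI2 were lower in sh-CLGN and CD44 was higher, and the part of such sites in these values was not tested.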
